A study of Homo sapiens with 42 samples.

Results

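The embryonic factors DPPA2 and DPPA4 were bound together at 12398 regions of NCI-H661 chromatin, and 1394 of these regions (11.2%) lay far from any gene start. The regions were selected on measured binding and on position: a region was counted as shared when a MACS2 peak of DPPA2 replicate 1 overlapped, by at least 1 bp, a peak of DPPA2 replicate 3, of DPPA4 replicate 2 and of DPPA4 replicate 3. It was counted as distal when its nearest edge was more than 5 kb from the transcription start site (TSS) of every GENCODE transcript (release 44, hg38). The 1394 distal shared peaks were 2.00% of the 69813 DPPA2 replicate 1 peaks on the 24 standard chromosomes and 7.12% of the 19585 such peaks that were distal. They are set beside the 11004 shared peaks within 5 kb of a TSS and beside the 14077 distal peaks found in DPPA2 replicate 1 only. Peaks that were found in DPPA2 replicate 1 and in 1 other list (2863) or in 2 other lists (1251) belong to none of these sets.

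The peaks come from parental, untreated NCI-H661, a large cell lung carcinoma line that expresses DPPA2 and DPPA4 from its own genes. The same positions were then read in another lung carcinoma line, NCI-H1299, which stably carries inducible FLAG-DPPA2 and V5-DPPA4, after 7 days of doxycycline at 2 µg/mL (DOX) or 7 days of water (CTRL). Both NCI-H1299 groups carry the transgenes, so the comparison is of induced with uninduced cells, and DPPA2 and DPPA4 binding in NCI-H1299 was not analysed here. ChIP-seq of H3K27ac, H3K4me1, H2AK119ub, H3K36me3 and H3K9me3 was available with 2 replicates in each line and treatment, H3K36me2 with 2 replicates in NCI-H661 only, and KDM2A and SUZ12 with 1 library each in NCI-H661. The DPPA4 antibody of these libraries recognises the N-terminal part of the protein. No label states that the replicates are separate cultures, and p-values therefore measure a spread that may only be technical. CUT&RUN, H3K27me3 and H3K4me3 profiles were not analysed here.

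DPPA2 and DPPA4 are DNA-binding proteins with a SAP domain that are active in the early embryo and in pluripotent cells, where they keep CpG-rich developmental genes in a state that can later be switched on. Many of their known targets are promoters. H3K27ac and H3K4me1 together mark active enhancers, whereas H3K4me1 without H3K27ac is found at inactive or primed ones. H2AK119ub is written by Polycomb repressive complex 1 (PRC1), and SUZ12 is a core subunit of PRC2, which methylates H3K27. KDM2A reads unmethylated CpG through its CXXC zinc finger and removes methyl groups from H3K36. H3K36me3 covers transcribed gene bodies, H3K36me2 broader domains, and H3K9me3 silent and repetitive DNA.

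Marks were read from EPIC2 islands at a log2 fold above 1 over input and an FDR below 0.05, and a peak counted as marked when an island overlapped it. The NCI-H661 replicates differed in depth: the ChIP library held 1.04 times as many reads as its input for H3K27ac replicate 1 and 1.81 times as many for replicate 2, and for H2AK119ub these ratios were 1.22 and 2.44. Island lists covered 51.1 to 187 Mb in NCI-H661 and 6.53 to 129 Mb in NCI-H1299. The identity of the lines was checked through H3K27ac islands at marker promoters. In both NCI-H661 libraries the promoters of DPPA2, DPPA4, EPCAM, KRT8, KRT18, VIM and NKX2-1 held an island, and those of the blood genes PTPRC and CD3E did not. In NCI-H1299 the DPPA2 promoter held no island in any library, whereas the DPPA4 promoter held one in both DOX libraries and in CTRL replicate 2.

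The sequences at the summits of 6 distal shared peaks show the range of DNA in the set. Each is 200 bases of the plus strand of hg38. All but the last are centred on the DPPA2 replicate 1 summit. The last includes the summit but was placed so that the motif in capitals lies at its centre. CpG dinucleotides are in capitals in all but the last, where the capitals mark the palindrome that the factor NRF1 binds. The first 2 belong to the peaks with the highest DPPA2 and DPPA4 enrichment, the third to a peak with H3K27ac, H2AK119ub and KDM2A, the fourth to a SUZ12-bound peak near LBX1, and the last 2 to tandem repeat arrays.
AHRR intron, chr5:392137-392336: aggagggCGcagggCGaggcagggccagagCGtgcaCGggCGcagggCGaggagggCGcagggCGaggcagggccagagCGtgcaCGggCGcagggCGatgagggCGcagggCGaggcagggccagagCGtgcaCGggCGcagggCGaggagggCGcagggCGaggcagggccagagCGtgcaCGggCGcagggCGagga
intergenic near DUX4L2, chr4:190121649-190121848: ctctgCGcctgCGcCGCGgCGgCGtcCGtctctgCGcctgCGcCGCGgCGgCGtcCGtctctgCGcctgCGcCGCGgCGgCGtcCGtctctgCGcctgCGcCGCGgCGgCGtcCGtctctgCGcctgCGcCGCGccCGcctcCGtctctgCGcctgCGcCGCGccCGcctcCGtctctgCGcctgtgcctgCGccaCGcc
intergenic on chromosome 17, chr17:81488463-81488662: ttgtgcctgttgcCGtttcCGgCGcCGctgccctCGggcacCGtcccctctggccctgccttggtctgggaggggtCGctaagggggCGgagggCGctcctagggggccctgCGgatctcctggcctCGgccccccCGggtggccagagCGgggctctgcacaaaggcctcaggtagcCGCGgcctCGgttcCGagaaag
intergenic near LBX1, chr10:101223867-101224066: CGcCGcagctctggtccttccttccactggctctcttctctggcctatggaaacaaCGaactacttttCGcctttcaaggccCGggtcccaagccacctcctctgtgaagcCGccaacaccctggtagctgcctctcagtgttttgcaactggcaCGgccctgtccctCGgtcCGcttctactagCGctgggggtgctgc
DANT1 array, chrX:115884159-115884358: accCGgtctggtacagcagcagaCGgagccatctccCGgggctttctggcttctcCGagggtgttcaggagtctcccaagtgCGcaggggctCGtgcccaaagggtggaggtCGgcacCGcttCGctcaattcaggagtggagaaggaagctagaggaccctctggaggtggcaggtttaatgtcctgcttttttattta
LINC00665 array, chr19:36281641-36281840: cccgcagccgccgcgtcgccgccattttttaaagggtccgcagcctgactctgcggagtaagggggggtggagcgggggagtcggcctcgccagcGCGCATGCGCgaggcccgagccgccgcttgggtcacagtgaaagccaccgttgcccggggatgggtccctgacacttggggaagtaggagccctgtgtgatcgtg

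The AHRR and DUX4L2 summits hold 24 and 43 CpG in their 200 bases and are themselves short repeats, whereas the chromosome 17 summit holds 17 CpG and the LBX1 summit 10. The DANT1 sequence holds 9 CpG. It was compared with every position of the other distal shared peaks of that array. The best match, at chrX:115886261-115886460, was identical to it at 200 of 200 bases. The copies are 2102 bp apart.

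The distal shared peaks lay both between and inside genes. GENCODE placed 676 of them (48.5%) outside genes, 518 (37.2%) in introns and 200 (14.3%) on exons, and 589 lay inside a protein-coding gene. The exonic share was 6.71% among distal peaks of DPPA2 replicate 1 only, where introns took 54.2%. The median distance to the nearest TSS was 10150 bp. In all, 708 peaks lay more than 10 kb from a TSS, 257 more than 20 kb, 40 more than 50 kb and 8 more than 100 kb, with a maximum of 254053 bp. A gene start of the RefSeq table (GRCh38.p14) lay within 5 kb of 116 of them (8.32%), so these are distal by GENCODE but not by RefSeq.

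Peaks on either side of the 5 kb limit had folds of the same range. Just outside it, the first peak of the ENSG00000267605 array (5003 bp from a TSS) had a DPPA2 replicate 1 fold of 13.6, the GLI2 peak (5007 bp) 7.87 and the PC peak (5010 bp) 7.54. Just inside it, the LSM4 peak (4994 bp) had 5.92, the ENSG00000258860 peak (4992 bp) 11.3 and the GLI4 peak (4990 bp) 10.9.

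The set was concentrated towards chromosome ends and on chromosome 19. Within 5 Mb of a chromosome end lay 572 distal shared peaks (41.0%), against 31.5% of shared peaks near a TSS, 29.9% of distal peaks of DPPA2 replicate 1 only and 7.77% of the genome. Chromosome 19 held 239 of the 1394 (17.1%), against 12.3% of near shared peaks and 8.02% of distal peaks of DPPA2 replicate 1 only. Among the 239 were the 12, 11, 11 and 8 peaks of the chromosome 19 repeat arrays described below. Peaks near chromosome ends more often had H3K4me1 in both NCI-H661 replicates (48.6%, against 35.5% of the peaks farther in) and H2AK119ub (33.7%, against 19.7%), and less often a KDM2A peak (1.75%, against 7.30%). These shares are descriptions of 1 set of peaks and carry no test.

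In base composition the distal shared peaks lay between the other sets. Their median GC content was 64.0%, against 66.4% for shared peaks near a TSS and 55.2% for distal peaks of DPPA2 replicate 1 only. The median ratio of observed to expected CpG was 0.54, against 0.72 and 0.39 in the same sets, and the median CpG density was 5.20 per 100 bases, against 7.58 and 2.80. A CpG island, meaning a stretch of 500 bp whose GC content reached 55% and whose CpG ratio reached 0.65, was present in 686 distal shared peaks (49.2%), against 74.96% and 5.26%. Peaks found in DPPA2 replicate 1 only were narrower (median 206 bp, against 959 bp for distal shared peaks and 971 bp for shared peaks near a TSS), and width bears on every share of overlap below. In a fixed window of 300 bp at the summit, the CpG island criteria were met by 39.5% of distal shared peaks, against 67.3% and 8.18%.

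Short motifs were counted in the same 300 bp windows on both strands. GGGCGG, the core of the GC box that SP and KLF factors bind, was in 53.9% of the distal shared peaks, against 66.5% of shared peaks near a TSS and 31.9% of distal peaks of DPPA2 replicate 1 only. TGANTCA, the AP-1 site typical of enhancers, was in 3.30%, against 2.63% and 5.51%, and CCAAT, the site of NF-Y, was in 13.4%, against 12.2% and 20.1%. The NRF1 palindrome, whose letters are the capitals of the LINC00665 sequence above, was in 12 distal shared peaks (0.861%), against 0.227% and 0.0568%. Of these 12, 6 lay in the LINC00665 array and 4 in the ENSG00000267605 array on chromosome 19, so 10 of the 12 came from 2 repeat arrays. A match says only that these letters are present.

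DPPA2 and DPPA4 enrichment chose the peaks and is given as a description. The MACS2 fold ran between 2.66 and 77.1 for DPPA2 replicate 1, with a median of 9.30, and the medians were 5.59 in DPPA2 replicate 3, 5.57 in DPPA4 replicate 2 and 5.58 in DPPA4 replicate 3. Shared peaks near a TSS had medians of 9.35, 5.93, 6.01 and 5.71 in the same order of libraries. The medians of the distal and near sets thus lay close together in every library.

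The highest peak lay in an intron of AHRR, which encodes the repressor of the aryl hydrocarbon receptor, and spanned 5064 bp (chr5:390005-395068). Its folds were 77.1 and 27.8 in DPPA2 replicates 1 and 3 and 22.9 and 35.3 in DPPA4 replicates 2 and 3. It had H3K27ac, H3K4me1 and H2AK119ub in both NCI-H661 replicates. The second, 29424 bp from DUX4L2 at the end of chromosome 4, had folds of 46.4, 28.7, 19.5 and 19.3, a KDM2A peak, and no H3K27ac or H3K4me1 island in either replicate. Next by mean rank over the 4 libraries came peaks in ERICH1, SCAF1, KBTBD11, PTPRN2, TPGS1 and MEX3D, an intergenic peak whose nearest coding gene is WNT7B, and a peak in HSPA12B, with DPPA2 replicate 1 folds of 29.6 to 57.3. All 10 of these peaks held a CpG island, 2 had H3K27ac in both replicates, and PTPRN2, a receptor-type tyrosine phosphatase family member, had SUZ12, H2AK119ub in both replicates and H3K9me3 in both.

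H3K27ac was the most frequent mark at the distal shared peaks. In NCI-H661 it overlapped 48.4% of them in replicate 1 and 75.7% in replicate 2, and 660 (47.3%) in both. Shared peaks near a TSS were higher in each library (69.4% and 88.5%), and distal peaks of DPPA2 replicate 1 only were lower (22.5% and 44.6%). The gap between the replicates was larger than the gap between the distal and near sets, so levels are compared only within a library.

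H3K4me1 had the opposite order. It overlapped 47.1% and 55.7% of the distal shared peaks in replicates 1 and 2 and 570 (40.9%) in both, against 37.6% and 40.1% of shared peaks near a TSS. H2AK119ub overlapped 27.04% and 53.9% and 355 peaks (25.5%) in both, against 35.6% and 56.3% near a TSS and 7.99% and 28.0% of distal peaks of DPPA2 replicate 1 only. H2AK119ub was thus lower at distal than at near shared peaks in both libraries. H3K36me2 was higher at distal shared peaks than near a TSS (7.46% against 4.13% in replicate 1, 37.2% against 19.6% in replicate 2), as was H3K9me3 (6.89% against 4.18%, and 3.802% against 1.73%). Distal peaks of DPPA2 replicate 1 only had mean shares over the libraries of 20.9% for H3K36me2 and 5.27% for H3K9me3. The means of the distal shared peaks were close to these, at 22.35% and 5.34%. H3K36me3 overlapped 12.1% and 12.3%, against 14.2% and 13.6% near a TSS, and this small difference changed sign when an island had to cover at least 50% of the peak (0.46 points higher in the distal set). With 2 libraries per mark, no test of these differences was made.

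**Figure D1:**
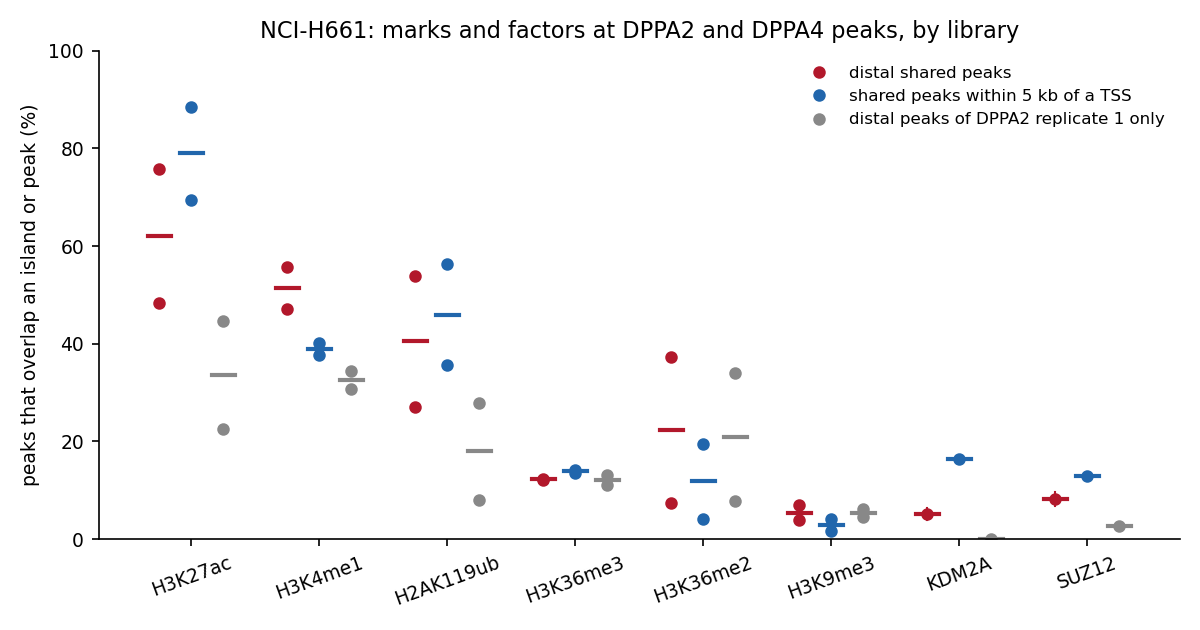
Share of peaks (%) that overlap an island of each histone mark, or a MACS2 peak of KDM2A or SUZ12, in NCI-H661. Points are libraries, short bars their mean, and thin vertical lines the 95% Wilson interval of the single KDM2A and SUZ12 libraries; the distal shared peaks (red, left) are lower than shared peaks near a TSS (blue) for H3K27ac, H2AK119ub, KDM2A and SUZ12 and higher for H3K4me1 and H3K36me2.

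Around the peak centre, H3K27ac formed a narrow maximum at distal as at near shared peaks. At the centre of the distal shared peaks 36.7% and 65.9% had an H3K27ac island in replicates 1 and 2, against 19.8% and 34.3% at 10 kb. H3K4me1 was also highest close to the centre of the distal set (32.4% and 40.5%, against 22.8% and 24.7% at 10 kb). Near a TSS it dipped at the centre to 19.4% and 21.0%, against 31.7% and 28.8% at 2 kb, a shape known from active promoters. H3K36me2 in replicate 1 was lower at the distal centre (3.59%) than at 10 kb (6.42%), and in replicate 2 the values were 26.8% and 28.7%.

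**Figure D2:**
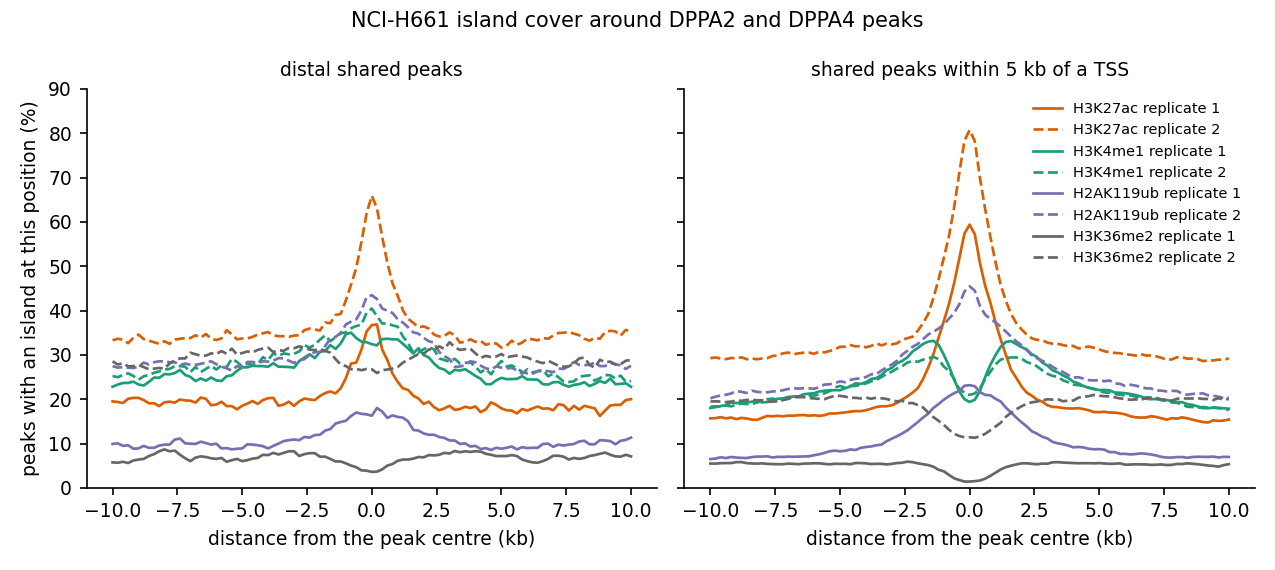
Share of peaks (%) with an island at each distance from the peak centre (kb), for distal shared peaks (left) and shared peaks within 5 kb of a TSS (right) in NCI-H661. Solid lines are replicate 1 and dashed lines replicate 2; the green H3K4me1 lines peak near the centre on the left, at 32.4% and 40.5%, and dip there on the right, to 19.4% and 21.0%.

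The marks divided the distal shared peaks into several states. Taking marks present in both replicates, 253 peaks had H3K27ac and H3K4me1 without H2AK119ub, 242 had H3K27ac alone, 111 had all 3 marks and 54 had H3K27ac and H2AK119ub. A further 113 had H3K4me1 alone, 93 had H3K4me1 and H2AK119ub, and 97 had H2AK119ub alone. None of these 3 marks was present in both replicates at 431 peaks, and 135 (9.68%) had no island of any of the 6 marks in either replicate. H3K4me1 accompanied 55.2% of the peaks with H3K27ac in both replicates and 16.0% of the 325 peaks with H3K27ac in neither. H2AK119ub did not follow H3K27ac in this way, at 165 of 660 and 87 of 325 of the same peaks.

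CpG content separated the H3K4me1 peaks. H3K4me1 was present in both replicates at 27.6% of the distal shared peaks with a CpG island and at 53.8% of those without. H3K27ac was at 45.0% and 49.6% of the same groups and H2AK119ub at 29.3% and 21.8%. Across quartiles of DPPA2 replicate 1 fold, from lowest to highest, a CpG island was present in 23.1%, 44.8%, 54.2% and 74.8% of the peaks and H2AK119ub in 20.6%, 22.1%, 28.8% and 30.4%, whereas H3K27ac (44.9%, 53.7%, 45.8% and 45.0%) showed no order. Width increased along the same quartiles, with medians of 547, 850, 1105 and 1422 bp, and its part in these shares was not tested. H3K36me3 went with gene bodies: 28.5% of exonic, 12.9% of intronic and 1.33% of intergenic distal shared peaks had it in both replicates.

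KDM2A and SUZ12 were each found at a small part of the distal shared peaks. A MACS2 peak of KDM2A at a fold above 2 overlapped 70 of them (5.02%, 95% Wilson interval 3.99 to 6.30%), against 16.4% of shared peaks near a TSS and 0.0924% of distal peaks of DPPA2 replicate 1 only. SUZ12 overlapped 113 (8.11%, 6.79 to 9.66%), against 12.9% and 2.61%. Intervals cover counting error only, and there was 1 library per factor. The ChIP library held 0.397 times as many reads as its input for KDM2A and 1.13 times as many for SUZ12. Peaks at a fold above 2 numbered 3093 for KDM2A and 34512 for SUZ12 over the standard chromosomes. The KDM2A and SUZ12 shares are therefore not compared with each other, and the part of depth in them was not tested. Islands called by EPIC2 in the same KDM2A library overlapped 30.9% of the distal shared peaks, so the KDM2A share depends on the caller.

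The peaks with SUZ12 and those with KDM2A had different marks. Of the 113 peaks with SUZ12, H2AK119ub covered 76.1% and 83.2% in replicates 1 and 2, against 22.7% and 51.4% of the 1281 without SUZ12. H3K27ac covered 22.1% and 40.7% of the peaks with SUZ12, against 50.7% and 78.8% of those without. Of the 70 peaks with KDM2A, H3K27ac covered 58.6% and 81.4%, against 47.8% and 75.4% without KDM2A, and H3K4me1 covered 40.0% and 31.4%, against 47.4% and 57.0%. A CpG island was present in 83.2% of the SUZ12 peaks and 88.6% of the KDM2A peaks. H3K36me2, the mark that KDM2A removes, was at 10.0% and 17.1% of the KDM2A peaks, against 7.33% and 38.3% of the others, so its order differed between the replicates.

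**Figure D3:**
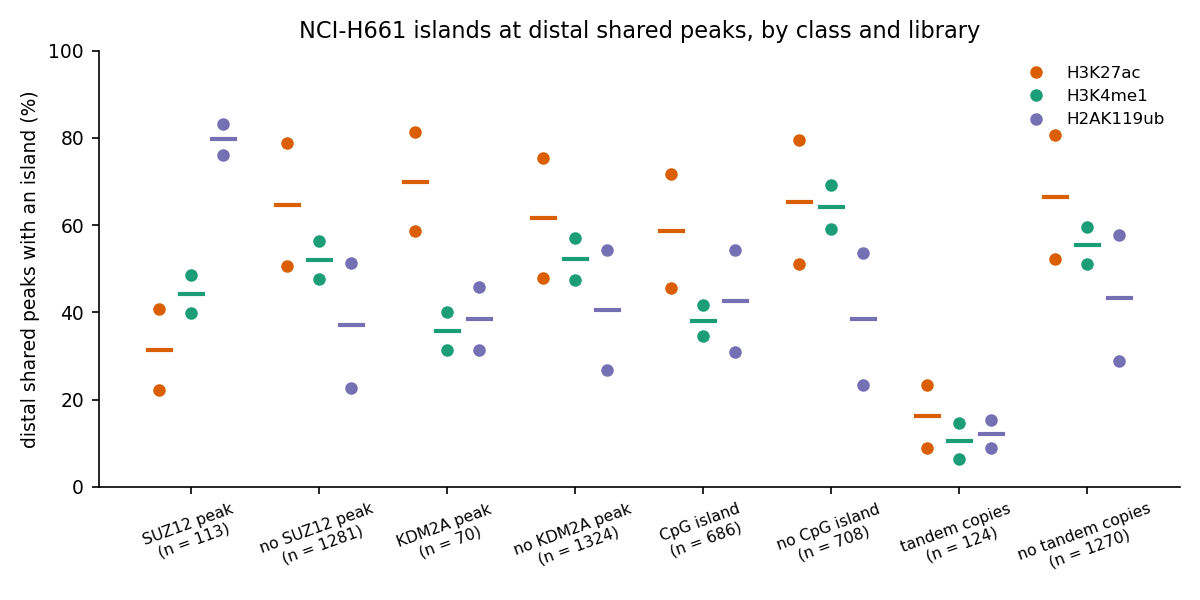
Share of distal shared peaks (%) with an island of H3K27ac, H3K4me1 or H2AK119ub in NCI-H661, by class of peak, with the number of peaks under each class. Points are the 2 libraries and bars their mean; peaks with SUZ12 have the highest H2AK119ub shares (76.1% and 83.2%) and peaks in tandem copies are low for all 3 marks.

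Peaks with SUZ12 and H2AK119ub in both replicates but H3K27ac in neither numbered 45, and the 4 with the highest SUZ12 fold lay near LBX1 and UNCX. A SUZ12 peak of fold 29.9 spanned 2 adjacent distal shared peaks 5230 and 5892 bp from LBX1, a homeobox gene of muscle precursors and spinal neurons. UNCX, a homeobox gene of the somites, had 2 peaks 7481 and 9354 bp away, each with a SUZ12 fold of 27.1. The next 6 by SUZ12 fold lay near ENSG00000279284 (23.75), EN2 (23.6), ENSG00000280414 (22.7), inside PTPRN2 (18.7), near ENSG00000259166 (17.3) and inside ONECUT3 (14.97). EN2, a factor of the midbrain and hindbrain, and ONECUT3 are homeobox genes. H2AK119ub reads over these 10 peaks reached 25.9 to 47.3 per kb of island in replicate 1 and 67.5 to 100.5 in replicate 2. The 113 SUZ12-positive distal peaks touched 126 SUZ12 peaks, 7 of which touched more than 1 of them, so neighbouring members can share a SUZ12 peak.

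A few peaks carried H3K27ac, H2AK119ub and KDM2A at once. There were 11 with both marks in both replicates and a KDM2A peak. The one with the most H3K27ac lay at chr17:81487410-81489646, with 50.5 and 129 reads per kb of H3K27ac island and 34.6 and 46.9 reads per kb of H2AK119ub island in replicates 1 and 2. Others lay near RNA5SP77, BRSK2 (a brain kinase), CUX1 (a homeobox factor), SP8 (a zinc finger factor of limb and brain), CPT1A (fatty acid import into mitochondria) and SDHAF1 (assembly of succinate dehydrogenase), and inside PRDM13, a factor of spinal and retinal neurons. The PRDM13 peak also had SUZ12, with a fold of 4.03, and a KDM2A fold of 5.02.

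SUZ12 and KDM2A met at 14 distal shared peaks, all with a CpG island. Of these, 4 lay in the ENSG00000283360 array on chromosome 1, 1 near ENSG00000287607 and 2 near the ribosomal RNA genes RNA5-8SN1 and RNA5-8SN2 on chromosome 21, and 6 of the 14 were in tandem copies. The others lay near VWA5B1, MKI67, ENPP7, RPL21P34, SIM2, RNU1-58P and PRDM13. H2AK119ub was present in both replicates at 6 of the 14 and H3K27ac at 3.

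Tandem repeat arrays were a distinct source of distal shared peaks. A peak was assigned to tandem copies when at least 50% of the 31-base words of its 300 bp summit window recurred within 100 kb outside the window. This held for 124 distal shared peaks (8.90%), against 2.39% of shared peaks near a TSS. The study left out peaks in regions of the ENCODE blacklist. That list was not applied here, and whether it covers these repeats was not checked. Reads that match several copies equally well cannot be assigned to a single copy, and how they were handled is not stated. Peaks in tandem copies may therefore not be separately bound sites. Their folds and shares may not belong to single copies. Peaks in tandem copies had H3K27ac in both NCI-H661 replicates in 8.87% of cases, against 51.1% of the other 1270, H3K4me1 in 5.65%, against 44.3%, and H2AK119ub in 8.87%, against 27.1%. H3K9me3 was at 8.87%, against 1.97%, and KDM2A and SUZ12 at 8.87% and 14.5%, against 4.65% and 7.48%. The islands of EPIC2 were themselves scarce there: in the DPPA2 replicate 1 library that defined the peaks, an EPIC2 island overlapped 47 of the 124 (37.9%), against 1244 of 1270 (98.0%). Low histone shares in tandem copies thus stood beside few EPIC2 islands of DPPA2 itself, and the part of the caller in them was not tested.

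The array with the most distal shared peaks was the DXZ4 macrosatellite on the X chromosome, transcribed as DANT1 and DANT2. It held 17 distal shared peaks over 40.7 kb, between chrX:115848692 and chrX:115889348, on a repeat of 2985 bp. All 17 held a CpG island and 3 had KDM2A, none had H3K27ac, H3K4me1 or H2AK119ub in both replicates, and their DPPA2 replicate 1 folds ran between 8.37 and 22.4. None of the 17 overlapped an EPIC2 island of DPPA2 replicate 1.

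On chromosome 19, 12 peaks lay in the ENSG00000267605 array (21.8 kb, repeat of 2525 bp), of which 4 had H3K9me3 in both replicates. The LINC00665 array held 11 peaks (27.3 kb, repeat of 2535 bp), the ENSG00000287001 array 11 (42.2 kb, repeat of 5352 bp) and the SULT2A1 and BSPH1 array 8 (48.8 kb, repeat of 5373 bp), of which 4 had SUZ12. SULT2A1 encodes a steroid sulfotransferase. In the chromosome 1 array of ENSG00000283360 (17.7 kb, repeat of 7405 bp), all 6 peaks had SUZ12 and 4 had KDM2A. Of 36 distal shared peaks with H3K9me3 in both replicates, 11 lay in tandem copies.

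**Figure D4:**
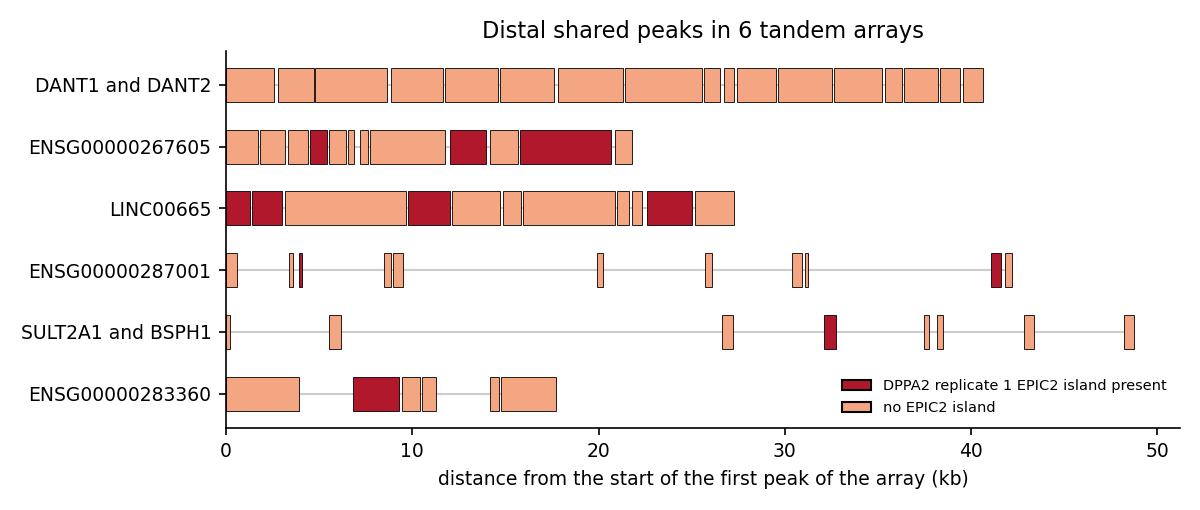
Distal shared peaks (boxes) in the 6 largest tandem arrays, by distance from the start of the first peak (kb). Dark boxes also overlap an EPIC2 island of the DPPA2 replicate 1 library and light boxes do not; the 17 peaks of the DANT1 and DANT2 array are all light.

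Distal shared peaks often came in groups. Joining all peaks less than 50 kb apart, those of the arrays included, gave 232 groups with 838 peaks, and 556 peaks stood alone. Groups of 5 or more numbered 42 and held 364 peaks. The largest non-repeat groups had 17 peaks each. Around GADD45B and GNG7 on chromosome 19 (138 kb), 16 of 17 had H3K27ac in both NCI-H661 replicates; GNG7 encodes a G protein gamma subunit and GADD45B a stress-response protein. At GSE1 on chromosome 16 (272 kb), 11 of 17 had H3K27ac and 13 had H3K4me1, and the whole gene held 24 distal shared peaks. The group around C1QTNF8 on chromosome 16 had H3K27ac at 7, H3K4me1 at 9 and H2AK119ub at 7 of 17.

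Other groups differed in their marks. At LAMA5, CABLES2 and GATA5 on chromosome 20, 12 of 15 peaks had H2AK119ub in both replicates, and H3K27ac was also at 12. Around UNCX on chromosome 7, 11 of 13 had H2AK119ub, 2 had H3K27ac and 3 had SUZ12. At EFNA2, an ephrin ligand gene on chromosome 19, 6 of 11 had H2AK119ub and 0 had H3K27ac. The FGFR3 and TACC3 group held 15 peaks in 35.5 kb, with H3K4me1 at 8, H2AK119ub at 4 and H3K27ac at 3, and the NOTCH1 group 14 peaks in 113 kb, with H3K4me1 at 7, H2AK119ub at 4 and H3K27ac at 4. All 9 peaks around PTMA, which encodes prothymosin alpha, had H3K27ac and 1 had H2AK119ub. Neighbouring peaks share islands, so these counts are not of independent sites.

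Distal shared peaks lay inside or nearest to genes of several of the lists examined. Over all 20007 protein-coding genes, 918 (4.59%) held a distal shared peak or were the nearest coding gene of one. The same was true of 11 of 55 Wnt genes (20.0%), 8 of 47 developmental transcription factor genes (17.0%), 6 of 39 Polycomb genes (15.4%) and 5 of 22 genes of H3K4 and H3K36 methylation (22.7%). It was true of 1 of 23 lung lineage genes (MUC5B), 1 of 20 epithelial genes (CLDN4), 2 of 20 mesenchymal genes (SNAI1 and TGFB1), 1 of 14 neuroendocrine genes (DLL3) and neither DPPA gene. These are counts on lists of unequal gene size and spacing, with no test.

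Among the Wnt genes, the ligand WNT7B was the nearest coding gene of 2 peaks, with DPPA2 replicate 1 folds of 43.7 and 6.82. FZD9, a receptor, had a peak at 8987 bp with a fold of 14.1 and H3K27ac, H3K4me1 and H2AK119ub in both replicates. AXIN1, the scaffold of the beta-catenin destruction complex, had 3 peaks with folds of 9.72 to 12.7. The 15 Wnt peaks had H3K27ac in both replicates at 7, H2AK119ub at 6 and SUZ12 at 3, the last inside WNT3A, WNT6 and WNT8B.

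Of the 13 peaks assigned to developmental transcription factors, 10 had H3K27ac in both replicates and 4 had SUZ12, near LHX3, LHX4, PAX2 and PAX9. SALL4, a pluripotency factor, was the nearest coding gene of 4 peaks, 129 to 138 kb away, all with H3K27ac and H3K4me1 in both replicates. The Polycomb genes with peaks were the chromodomain genes CBX6, CBX7 and CBX8 and the variant PRC1 genes KDM2B, BCOR and BCORL1. The 3 BCOR peaks, with folds of 9.87 to 11.8, all had H3K27ac and a CpG island. All 6 peaks of SNAI1, a repressor of epithelial genes, and of TGFB1 had H3K27ac and H3K4me1 in both replicates.

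Some distal shared peaks lay where the input itself was high. Over the 1291 distal shared peaks with an EPIC2 island in DPPA2 replicate 1, the median input was 11.4 reads per kb, against 12.2 for shared peaks near a TSS. It was at least 2.5 times the median at 38 distal shared peaks, 7 of them in tandem copies. Most of the others lay on chromosome 19, including ACTN4 (37.9 reads per kb), PAK4 (31.4), IFNL1 (37.5) and DLL3 (37.7), or on chromosome 14, at SFTA3 (35.6) and PAX9 (32.6). The ACTN4, PAK4, IFNL1 and SFTA3 peaks had H3K27ac in both replicates, and the part of the input level in these calls was not tested.

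In NCI-H1299 the same positions carried fewer islands, and H3K27ac was more frequent after DOX. H3K27ac overlapped 25.04% and 13.5% of the distal shared peaks in DOX replicates 1 and 2, against 8.97% and 10.2% in CTRL replicates 1 and 2. The means were 19.3% ± 8.17 in DOX and 9.58% ± 0.862 in CTRL (SD, n = 2 libraries each), a difference of 9.68 points. The groups did not overlap, but an exact two-sided permutation test gave p = 0.33, the smallest that 2 libraries against 2 can give. DOX replicate 1 was sequenced 1.86 times as deeply as DOX replicate 2, and CTRL replicate 1 was 1.31 times as deep as CTRL replicate 2. Without DOX replicate 1 the difference was 3.91 points. Near a TSS the same libraries gave 61.4% and 47.3% in DOX, against 32.5% and 38.9% in CTRL, the same direction. Islands were called over input, and each treatment had a single input library for all of its ChIP libraries. For every mark, a difference between these inputs cannot be told apart from an effect of DOX on island shares.

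H3K4me1 overlapped 22.96% and 24.1% of the distal shared peaks in DOX, against 17.0% and 21.3% in CTRL. The difference of means was 4.38 points, without overlap of the groups (exact permutation p = 0.33), and 2.22 points without CTRL replicate 1. H2AK119ub overlapped 14.99% and 18.5% in DOX, against 9.40% and 16.9% in CTRL, and here the groups overlapped (exact permutation p = 0.67). Without CTRL replicate 1 the H2AK119ub difference, 3.59 points with all libraries, was -0.18. H3K36me3 was at 4.38% and 4.73% in DOX and at 2.94% in each CTRL library (exact permutation p = 0.33), and H3K9me3 at 0.646% and 0.574% in DOX and 0.143% and 1.08% in CTRL (exact permutation p = 1.0). Over the 5 marks no adjusted p could pass 0.05 with this number of libraries.

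**Figure D5:**
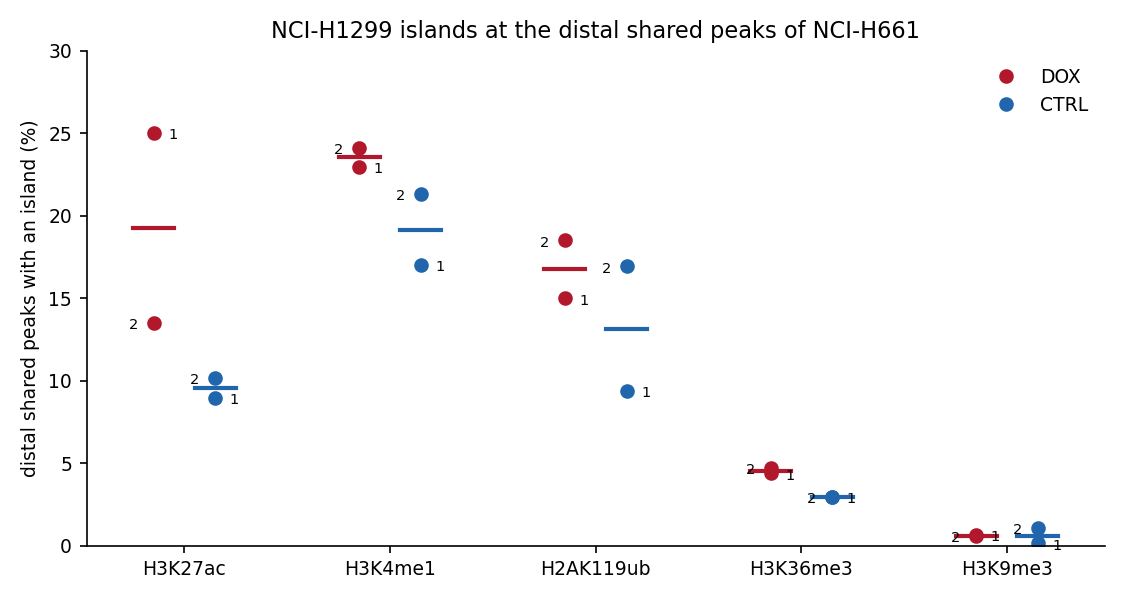
Share of the NCI-H661 distal shared peaks (%) that overlap an island of each mark in NCI-H1299 after 7 days of DOX (red, left) or water (CTRL, blue). Points are libraries with their replicate number and bars are means; H3K27ac is 25.04% and 13.5% in DOX and 8.97% and 10.2% in CTRL, and the H2AK119ub libraries of the treatments overlap.

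H3K27ac in NCI-H1299 was more frequent at the peaks that had it in NCI-H661 than at those that did not. Among the 660 peaks with H3K27ac in both NCI-H661 replicates, H3K27ac was found at 42.4% and 24.5% in DOX, against 17.4% and 19.8% in CTRL. Among the 325 peaks with H3K27ac in neither NCI-H661 replicate it was at 5.23% and 1.23% in DOX, against 0.0% and 0.308% in CTRL (0 and 1 of 325 peaks). Peaks with SUZ12 in NCI-H661 had H3K27ac at 13.3% and 4.42% in DOX, against 2.65% in each CTRL library, and peaks with KDM2A at 45.7% and 25.7%, against 21.4% and 22.9%. H2AK119ub at the peaks with SUZ12 was 19.5% and 17.7% in DOX and 9.73% and 19.5% in CTRL, so the treatments overlapped.

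Counting peaks with an H3K27ac island in both DOX and neither CTRL library gave 56 distal shared peaks (4.02%), and 2 (0.1435%) had the reverse. Over all 69813 DPPA2 replicate 1 peaks these counts were 4.01% and 0.0773%, so the share of gains was at the background. That background pools near and distal peaks. Gains were at 8.13% of shared peaks near a TSS and at 1.29% of distal peaks of DPPA2 replicate 1 only. Of the 56, 41 had H3K27ac in both NCI-H661 replicates, 2 had it in neither, and 28 held a CpG island. Without DOX replicate 2 the count was 190.

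Among the 10 with the most H3K27ac reads after DOX were peaks near ENSG00000224370 on chromosome 7 (86.7 and 80.0 reads per kb of island in DOX replicates 1 and 2), CDCA4 (63.6 and 60.0), TPT1P4 (76.5 and 36.5) and GORASP2 (49.1 and 46.7). The first of these lies in tandem copies and had an input of 86.7 reads per kb in NCI-H661.

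H3K4me1 islands were in both DOX and neither CTRL library at 45 distal shared peaks (3.23%), against a background of 3.03%. The reverse held for 9 (0.646%), against 0.864%. For H2AK119ub the counts were 55 (3.95%), against 2.15%, and 21 (1.51%), against 1.03%. H3K36me3 gave 10 peaks (0.717%), against 1.36%, with 2 in reverse (0.1435%), against 0.236%. H3K9me3 gave only 3 (0.215%), against 0.0172%, with 1 in reverse (0.0717%), against 0.0229%. For H2AK119ub the shared peaks near a TSS were also above the background in both directions, at 4.72% and 2.19%. Islands of a mark were absent from all 4 libraries at 1022 of the 1394 peaks for H3K27ac, 908 for H3K4me1 and 912 for H2AK119ub.

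A test of read counts needed islands over 50% or more of a joined region in each of the 4 libraries. With edgeR over all such regions, the share called higher or lower after DOX (adjusted p under 0.05 with a log2 change of 0.5 or more either way) was 0.222% and 0.0296% of 6764 H3K4me1 regions, 0.187% and 0.078% of 6414 H3K36me3 regions, and 0 of 3317 H3K27ac, 124 H2AK119ub and 62 H3K9me3 regions. Distal shared peaks lay in 31 of the H3K27ac regions, 86 of H3K4me1, 5 of H2AK119ub, 4 of H3K36me3 and 0 of H3K9me3. None of these member regions was called by edgeR or by DESeq2, and an unadjusted edgeR p below 0.05 was found at 15 of the 86 H3K4me1 member regions (595 of 6764 over all), 2 of the 4 of H3K36me3 (496 of 6414 over all), 0 of the 31 of H3K27ac (189 of 3317 over all) and 0 of the 5 of H2AK119ub (6 of 124 over all). The median log2 change of the member regions was 0.05 for H3K27ac (0.00 over all regions) and -0.05 for H3K4me1 (0.00 over all).

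In the following examples reads are as deposited and log2 changes are after scaling for library size (TMM) with the replicate as a block. The SE after each ± was worked back from the change and its unadjusted edgeR p by a normal approximation. It is therefore not a separate measure of spread. The H3K4me1 region with the lowest p, near TOM1L2 (chr17:17955901-17961500), had 202 and 259 reads in DOX replicates 1 and 2, against 117 and 180 in CTRL. The DOX and CTRL counts did not overlap, and its log2 change was 0.53 ± 0.16 (SE; edgeR adjusted p = 0.164). The region near RARG, the retinoic acid receptor gamma gene, had 108 and 143 reads in DOX, against 134 and 199 in CTRL, with a log2 change of -0.52 ± 0.18 (edgeR adjusted p = 0.239). For H3K27ac the lowest p was near GRIN1, a glutamate receptor gene, with 117 and 52 reads in DOX, against 63 and 67 in CTRL, and a log2 change of -0.43 ± 0.23 (edgeR adjusted p = 0.924). The unscaled reads thus had a higher mean in DOX, through DOX replicate 1, while the scaled change was negative. The FGFR3 region had 39 and 46 H2AK119ub reads in DOX, against 43 and 70 in CTRL, with a log2 change of -0.21 ± 0.25 (edgeR adjusted p = 0.830). Differences of this size could not be told from the spread between replicates.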

How the data were processed

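The authors trimmed reads with Trim Galore 0.6.6, aligned them to hg38 (GRCh38.p13) with BWA 0.7.13 and processed them with SAMtools 1.9, Picard 2.6.0 and deepTools 3.5.0, and called peaks per library against input with MACS2 and EPIC2. The blacklist of the study was not used here. For every island the deposited EPIC2 lists hold the counts of ChIP reads and of input reads, the log2 fold between them, a score, the p-value and its FDR. For every peak the deposited MACS2 lists hold a score, the fold over input (a linear ratio) and both p and q as −log10. Only islands whose log2 fold exceeded 1 at an FDR under 0.05 were kept, and only KDM2A and SUZ12 peaks whose fold exceeded 2.

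Distances were measured from peak edges to GENCODE starts, and sequence came from the hg38 reference (Python 3.11.15, pandas 2.3.3, numpy 2.4.6, scipy 1.17.1, pysam 0.24.0, matplotlib 3.10.9). For each mark, overlapping islands of the 4 NCI-H1299 libraries were joined, the deposited ChIP counts were summed per region, and regions were fitted in edgeR 4.0.16 (R 4.3.3; TMM, quasi-likelihood test, replicate number as a block, Benjamini-Hochberg adjustment over all regions of the mark), with DESeq2 1.42.0 as an alternative. For H3K27ac, H3K4me1 and H3K36me3 the fit was also run on simulated counts, with a fixed dispersion and no replicate effect. H2AK119ub and H3K9me3 had too few regions for that run. It does not measure the error rates of the fit in these data. Where a library lacks an island the lists give no reads for it, so most distal peaks could not enter the fit. Total reads per library are not given in the lists, and depth is known only relative to the input or to the other replicate.

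The block follows the design of the study, which describes batches. Same-numbered libraries had correlated deviations for H3K27ac (r = 0.26 across 3317 regions) and H2AK119ub (0.11 across 124), and less so for H3K4me1 (0.04), H3K36me3 (0.08) and H3K9me3 (0.03), where regions are not independent replicates.

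Members and lists were chosen with earlier results of these data known. Named peaks were the 10 highest in mean rank of DPPA2 and DPPA4 fold, the 10 highest in H3K27ac among those with H2AK119ub and KDM2A, the genes and groups with the most members, members at listed genes, and peaks next to the 5 kb limit. SUZ12 peaks, peaks gained after DOX, peaks with both SUZ12 and KDM2A, peaks of high input and the edgeR regions of lowest p were named after their values were seen. Alternatives were other distance limits, overlaps, thresholds and callers, leaving out each library, and fits without the block, with DESeq2, without the coverage minimum and per covered length. Leaving out tandem copies, EPIC2 islands of KDM2A and SUZ12, and RefSeq starts were added after seeing the data. A further marker promoter that was examined is not reported here.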

Additional observations from a re-analysis of the deposited data

Results flagged for a closer look

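KDM2A and SUZ12 were deposited both as MACS2 peaks and as EPIC2 islands, and the report rests on the MACS2 peaks. An EPIC2 island of KDM2A without a MACS2 peak overlapped 373 of the 1394 distal shared peaks (26.8%), against 46.3% of shared peaks near a TSS and 3.89% of distal peaks of DPPA2 replicate 1 only. For SUZ12 it overlapped 67 (4.81%), against 9.03% and 2.01%. A count of 0 would allow a share of up to 0.215% of the 1394. The cause of the difference between the callers was not tested, and there was 1 library per factor.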

How the results depend on the processing

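Over 54 results, 468 values were computed under alternatives, of which 138 moved and 3 reversed. The other 327 kept their direction and stayed within any limit set for that kind of result. For shares of histone marks, and for their differences between distal and near peaks, the limit was 1 SD between replicates. For counts it was 1.5 times. Shares of KDM2A, SUZ12 and CpG islands used the Wilson interval, and GC content used the interquartile range. Differences between DOX and CTRL had no limit beyond direction, nor had KDM2A and SUZ12 differences between distal and near peaks. Where the SD was wide, or where only direction counted, the values that kept their direction include large shifts. The causes of the moves were not tested unless the setting itself names one. The number of distal shared peaks, 1394, was 2404 with a limit of 2 kb, 708 with 10 kb and 901 when 25% of each peak had to overlap. The share with a CpG island was 39.5% in 300 bp windows.

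Among marks in both NCI-H661 replicates, H3K4me1 was at 23.7% of the peaks with islands of a log2 fold above 2 and at 26.97% when an island had to cover 50% of the peak. H3K36me3 was at 4.735% (log2 fold above 2), 10.4% (islands as deposited), 6.96% (50% covered), 13.77% (2 kb), 4.94% (10 kb), 8.32% (25% overlap) and 10.16% (without tandem copies). Its difference between distal and near shared peaks, -0.75 points, reversed to 0.46 points (50% covered) and 4.42 points (2 kb). Within the spread of the replicates, H2AK119ub was at 11.3% (log2 fold above 2) and 15.6% (50% covered), against 25.5% as reported, and H3K36me2 at 1.22% (log2 fold above 2), 9.76% (as deposited) and 2.58% (50% covered), against 5.67%. With single libraries the shares were 48.4 to 75.7% for H3K27ac, 47.1 to 55.7% for H3K4me1, 27.04 to 53.95% for H2AK119ub, 12.12 to 12.27% for H3K36me3, 7.46 to 37.2% for H3K36me2 and 3.802 to 6.89% for H3K9me3. KDM2A was at 0.789% (50% covered), 30.9% (EPIC2 islands, added after seeing the data) and 6.66% (25% overlap), and SUZ12 at 5.24% (50% covered) and 11.7% (EPIC2 islands).

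In NCI-H1299, marks in both DOX replicates were at 9.61%, 19.15%, 9.90%, 16.4% and 19.3% for H3K4me1 (log2 fold above 2, as deposited, 50% covered, 25% overlap, without tandem copies), 3.66% and 2.22% for H2AK119ub (log2 fold above 2, 50% covered), 1.08%, 3.23%, 1.44%, 4.08% and 1.55% for H3K36me3 (log2 fold above 2, as deposited, 50% covered, 2 kb, 10 kb), and 0.215%, 0.215%, 0.3328% and 0.706% for H3K9me3 (log2 fold above 2, 50% covered, 2 kb, 10 kb). Marks in both CTRL replicates were at 1.51%, 8.82%, 4.52% and 7.77% for H3K27ac (log2 fold above 2, as deposited, 50% covered, 10 kb), 3.44%, 17.1% and 6.53% for H3K4me1 (log2 fold above 2, as deposited, 50% covered), and 0.430%, 2.08%, 0.574%, 2.16%, 0.848%, 1.55%, 1.51% and 1.58% for H3K36me3 (log2 fold above 2, as deposited, 50% covered, 2 kb, 10 kb, 25% overlap, DPPA2 fold above 2, without tandem copies). Single libraries gave, for DOX, 13.49 to 25.04% for H3K27ac, 22.96 to 24.1% for H3K4me1, 14.99 to 18.5% for H2AK119ub, 4.38 to 4.73% for H3K36me3 and 0.574 to 0.646% for H3K9me3, and for CTRL 8.97 to 10.2%, 17.0 to 21.3%, 9.40 to 16.9%, 2.94 to 2.94% and 0.143 to 1.08% for the same marks. The H2AK119ub difference between DOX and CTRL ran from -0.18 points, without CTRL replicate 1, to 7.35 points, and was 1.004 points with islands as deposited. The H3K27ac difference was 3.91 points without DOX replicate 1 and 15.5 points without DOX replicate 2, and the H3K4me1 difference 2.22 points without CTRL replicate 1 and 2.15 points with islands as deposited. H2AK119ub in both CTRL replicates was at 0.646% (log2 fold above 2), 9.47% (as deposited) and 1.004% (50% covered), against 4.88%, and H3K27ac in both DOX replicates at 7.96% (log2 fold above 2) and 7.82% (50% covered), against 12.8%.

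Peaks with an island in both DOX and neither CTRL library numbered 31 for H3K27ac (50% covered) and 65 to 190 with a library left out, 70, 24 and 57 to 93 for H3K4me1 (log2 fold above 2, as deposited, a library left out), 30, 23 and 74 to 135 for H2AK119ub (as deposited, 50% covered, a library left out), 5 and 14 to 27 for H3K36me3 (50% covered, a library left out), and 1, 1 and 3 to 6 for H3K9me3 (as deposited, 50% covered, a library left out). The reverse held for 4, 0, 0 and 2 to 11 for H3K27ac (log2 fold above 2, as deposited, 50% covered, a library left out), 5 and 19 to 47 for H3K4me1 (50% covered, a library left out), 7, 6 and 33 to 108 for H2AK119ub (log2 fold above 2, 50% covered, a library left out), 0 and 3 to 11 for H3K36me3 (50% covered, a library left out), and 0, 0 and 1 to 9 for H3K9me3 (log2 fold above 2, 50% covered, a library left out).

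With no replicate block, edgeR called 0 regions holding a distal shared peak for every mark, as with the block, and DESeq2 also called 0. Over all H3K4me1 regions the calls were 0 without the block, against 17 with it. Leaving out a library gave 0 to 1 member regions higher for H3K4me1 and for H3K36me3, the 1 without CTRL replicate 2 in each case, and 0 to 1 lower for H3K36me3, the 1 without CTRL replicate 1. With no coverage minimum, where a library without an island counts as 0, 77 member regions were higher and 80 lower for H2AK119ub, 4 higher for H3K36me3, and 1 higher and 3 lower for H3K9me3. These were of 536, 114 and 22 member regions, and over all regions that fit called 19081 higher and 23386 lower of 78272 for H2AK119ub, 337 higher of 111919 for H3K36me3, and 6080 higher and 11820 lower of 52299 for H3K9me3. Leaving out tandem copies and peaks near RefSeq starts were also added after seeing the data. Depth differed between libraries and could not be matched between DOX and CTRL, and 2 libraries per group cannot pass a permutation test.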
